A study of Homo sapiens with 12 samples.

Results

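The genes PIK3CA, PIK3R1, PDPK1, AKT1, AKT2, SGK1, SGK3 and PHLPP1 encode the core of the phosphoinositide 3-kinase (PI3K) route by which insulin activates the AKT and SGK kinases. They were taken by symbol from the expression table, where all 8 were found among 17520 genes. The m6A sites that lay in their gene bodies on the gene strand were added, 93 of 96671 sites in the list for insulin and 55 of 63578 in the list for insulin with Torin1. The genes were taken by name and not by a threshold on their values, though earlier results of these data were known when they were proposed.

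The human embryonic kidney line HEK293E was deprived of serum overnight and then given 200 nM insulin for 30 h. In the second condition the cells were pretreated with Torin1 at 250 nM, which blocks the kinase mTOR, and given the same insulin, so every sample was starved and then received insulin. Input mRNA, selected on its poly(A) tail in repeated rounds, was sequenced from 3 replicates per condition, and 3 replicates per condition were taken through miCLIP, in which a crosslinked antibody against N6-methyladenosine (m6A) leaves substitutions in the reads near methylated adenosines. The replicates are labelled as biological, but whether each was its own culture is not said; the p-values therefore reflect the scatter among these libraries alone, which may be technical.

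In this route, PI3K is a pair of a catalytic subunit such as p110-alpha (PIK3CA) and a regulatory subunit such as p85-alpha (PIK3R1), and it makes the membrane lipid PIP3. PIP3 brings AKT to the membrane, where PDK1, the kinase encoded by PDPK1, phosphorylates its activation loop and mTOR complex 2 phosphorylates its tail. PDK1 and mTOR complex 2 also phosphorylate SGK kinases, PHLPP phosphatases remove the phosphate from the AKT tail, and Torin1 blocks both mTOR complexes. The files hold mRNA levels and m6A sites, not phosphorylation.

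The values of an input library summed to between 12424643 and 12528454 normalized units for insulin and between 11418114 and 11438881 for Torin1. In 3 of the 6 libraries the spacing of low values gave the worth of 1 read; the depth of those libraries was 7.32, 9.09 and 8.2 M reads (M, 1e6). Of 6 HEK293 markers in the table, VIM, KRT8, KRT18, NEFM and INA passed the filter on low values. PAX2 (6 to 11 units) did not. Summed, the 6 were at 3774 to 3797 units with insulin and 9022 to 9047 with Torin1, mostly VIM. Of the 5 tested, 4 rose and NEFM fell, from 183 to 87.3 units on average. The blood markers PTPRC and CD3E were at 0 or 1 unit. The endothelial marker PECAM1 had no row. Summed fibroblast markers (COL1A1, COL3A1 and DCN), nearly all COL1A1, were at 186 to 238 units with insulin and 523 to 545 with Torin1. DCN was at 0 or 1, and the part of these markers in the results below was not tested.

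With Torin1, 5 of the 8 mRNAs fell, 2 rose and 1 was not called. PDPK1 fell to about a 0.348 share of its level with insulin, PHLPP1, SGK1, PIK3CA and SGK3 fell by less, AKT1 and PIK3R1 rose, and AKT2 was not called. Levels are in the authors' normalized units, and changes are log2 fold changes of (value + 1), insulin with Torin1 over insulin, from limma with Benjamini-Hochberg adjustment over 13842 tested genes, called at an adjusted p below 0.05. By that rule 86.0% of all tested genes were called, 43.4% higher and 42.5% lower, so 7 of 8 is near the background. A change beyond 1.5-fold was called for 1 of the 8, PDPK1, and for 47.5% of all tested genes (25.0% higher, 22.5% lower). In a bulk sample, fewer cells that express a gene and less RNA per cell cannot be told apart. The median change of the 8 genes was -0.32, and that of all tested genes was 0.02.

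**Figure D1:**
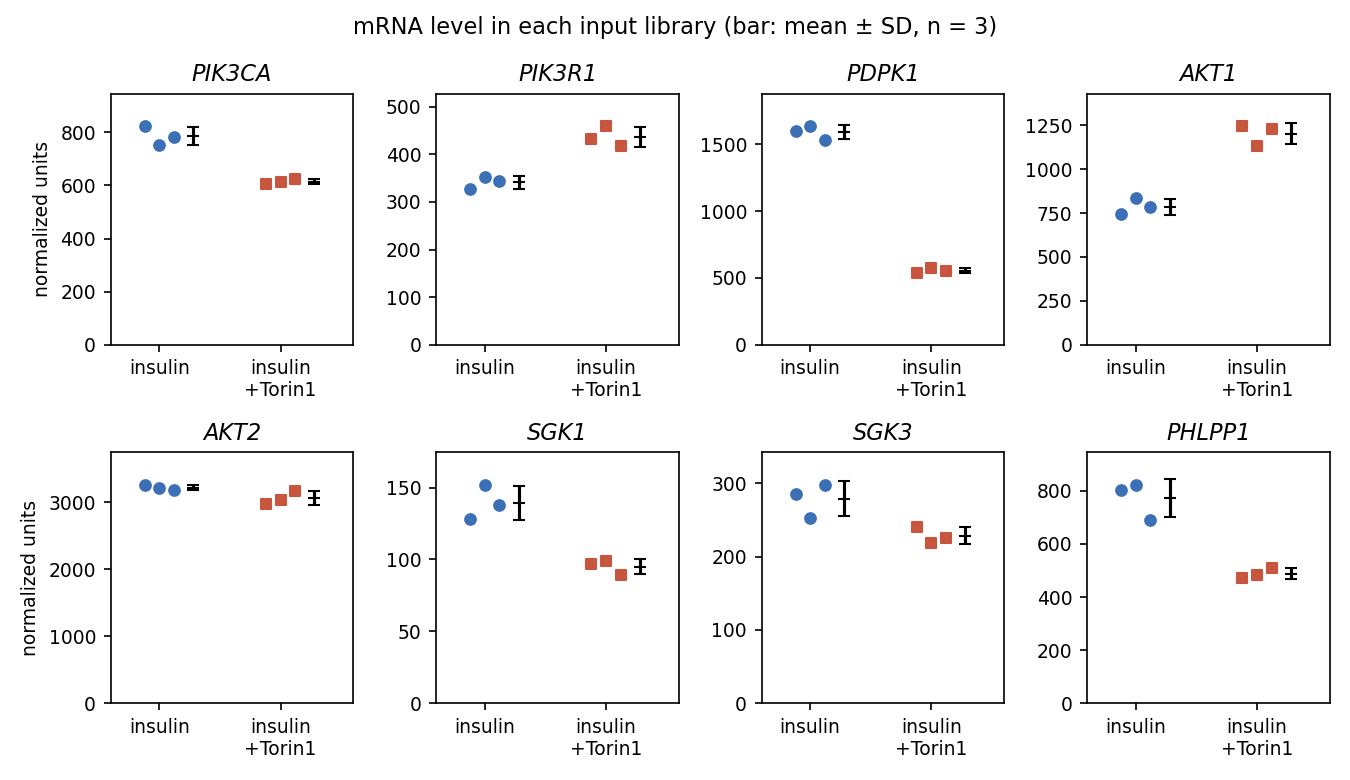
mRNA level of each of the 8 genes in the 3 input libraries with insulin (circles) and the 3 with insulin and Torin1 (squares), in normalized units on linear axes that start at 0; the bar beside each group is the mean ± SD (n = 3). PDPK1 drops from 1530 to 1634 units to 534 to 572, AKT1 rises, and the AKT2 groups lie 12 units apart.

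Of the 2 PI3K subunit genes in the set, PIK3CA fell and PIK3R1 rose. A larger absolute change was seen in 73.7% of all tested genes for PIK3CA and in 74% for PIK3R1. Another regulatory gene, PIK3R3, fell by -2.44. PIK3CA, which encodes the p110-alpha catalytic subunit, was at 823, 753 and 784 units in the insulin libraries and at 604, 613 and 623 with Torin1. All 3 Torin1 libraries were below all 3 insulin libraries. The change from 787 ± 35.1 to 613 ± 9.50 units (mean ± SD, n = 3 each) was -0.36 on the log2 scale (SE 0.05, limma adjusted p = 1.2e-06). The end of PIK3CA overlaps KCNMB3 on the other strand, which was listed at 6 to 32 units. PIK3R1, which encodes the regulatory subunit p85-alpha and shorter forms, was at 327, 353 and 344 units with insulin and at 432, 459 and 418 with Torin1. Here every Torin1 library was above every insulin library. The change from 341 ± 13.2 to 436 ± 20.8 units was 0.35 (SE 0.07, limma adjusted p = 4.6e-05, n = 3 each).

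The ratio of PIK3R1 to PIK3CA units within a library is not altered by a single scaling factor per library, though quantile normalization can alter it. It was 0.397, 0.469 and 0.439 with insulin and 0.715, 0.749 and 0.671 with Torin1, 1.64-fold higher on average. The groups did not overlap. Of 3 such ratios chosen after the values were seen, this one had an exact two-sided permutation p of 0.1 (0.15 adjusted over the 3), and 0.1 is the smallest that 3 against 3 libraries can give.

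PDPK1, which encodes the kinase PDK1 (not pyruvate dehydrogenase kinase, which shares that abbreviation), changed more than any of the other 7. It was at 1601, 1634 and 1530 units with insulin and at 534, 572 and 550 with Torin1. The groups lay far apart, and the spread within each was small beside the gap. The fall from 1588 ± 53.1 to 552 ± 19.1 units (n = 3 each) was -1.52 on the log2 scale (SE 0.05, limma adjusted p = 1.1e-18) and passed the test beyond 1.5-fold (adjusted p = 1.5e-14). A lower log2 fold change was seen in 8.36% of all tested genes, and a larger absolute change in 20%. PDPK1 has a nearly identical copy, PDPK2P, on the same chromosome (chromosome 16, 2616553 to 2642490, GRCh38), which has no row in the table, so reads of the copy may have been counted under PDPK1 or dropped.

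The AKT isoforms did not move together. AKT1 was at 743, 834 and 785 units with insulin and at 1245, 1133 and 1231 with Torin1. Every Torin1 library was above every insulin library. The rise from 787 ± 45.5 to 1203 ± 61.0 units (n = 3 each) was 0.61 on the log2 scale (SE 0.05, limma adjusted p = 1.4e-10), and did not pass the test beyond 1.5-fold (adjusted p = 0.544).

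AKT2, the isoform most tied to glucose uptake in insulin-responsive tissues, was at 3260, 3210 and 3186 units with insulin and at 2978, 3030 and 3174 with Torin1. The groups did not overlap, as in 86.3% of all tested genes, but replicate 3 of the Torin1 libraries was only 12 units under the lowest insulin library. The difference between 3219 ± 37.8 and 3061 ± 102 units was -0.07 on the log2 scale (SE 0.03, limma adjusted p = 0.0518, n = 3 each) and was not called. Without that library it was -0.10 and called (adjusted p = 0.0184). The sign of this value depended on scaling: it was 0.05 with libraries scaled to equal totals (limma adjusted p = 0.154) and 0.24 with quantile normalization, where it was called (limma adjusted p = 1.1e-06).

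Set against AKT2 in the same library, AKT1 was at 0.228, 0.260 and 0.246 with insulin and at 0.418, 0.374 and 0.388 with Torin1. The groups did not overlap, and the mean ratio was 1.61-fold higher with Torin1 (exact two-sided permutation p = 0.1, adjusted 0.15, n = 3 each). Units are not corrected for transcript length, so these ratios do not say which isoform had more mRNA molecules.

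Both SGK kinases fell. SGK1, known as a gene quickly induced by serum and glucocorticoids, was at 128, 152 and 138 units with insulin and 97, 99 and 89 with Torin1. No Torin1 library reached the lowest insulin library. The change from 139 ± 12.1 to 95 ± 5.29 units was -0.55 on the log2 scale (SE 0.12, limma adjusted p = 2.3e-04, n = 3 each). In the 3 libraries with a known worth of 1 read these values stood for 75, 110 and 64 reads, and SGK1 had the widest standard error of the 8. With quantile normalization its change was -0.93 (limma adjusted p = 2.5e-07).

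SGK3, whose product binds phosphoinositides on endosomes through a PX domain, was at 286, 252 and 298 units with insulin and at 241, 219 and 226 with Torin1. The groups were separated by 11 units. The change from 279 ± 23.9 to 229 ± 11.2 units was -0.28 (SE 0.09, limma adjusted p = 0.0044, n = 3 each). The call was lost with equal library totals, at -0.16 (limma adjusted p = 0.0950), and the change was -0.52 with quantile normalization (limma adjusted p = 6.4e-06). A read-through gene, C8orf44-SGK3, shares the SGK3 exons and was listed at 0 to 2 units. The ratio of SGK1 to SGK3 overlapped between groups, at 0.448, 0.603 and 0.463 with insulin and 0.402, 0.452 and 0.394 with Torin1 (exact two-sided permutation p = 0.2, adjusted 0.2, n = 3 each).

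PHLPP1, the phosphatase gene of the set, was at 804, 823 and 690 units with insulin and at 472, 483 and 510 with Torin1. All Torin1 libraries were lower, and insulin replicate 3 was the lowest of its group. The change from 772 ± 71.9 to 488 ± 19.6 units was -0.66 on the log2 scale (SE 0.06, limma adjusted p = 1.7e-09, n = 3 each), and it did not pass the test beyond 1.5-fold (adjusted p = 0.258). Its paralog PHLPP2 fell further, from 1717 ± 112 to 369 ± 13.4 units, a change of -2.22 (limma adjusted p = 1.2e-20).

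The other genes of the route spread to both sides. Of 57 genes in a list of PI3K, AKT and SGK pathway genes, 56 were in the table and 53 passed the filter on low values. Of these 21 rose, 26 fell and 6 were not called, with a median change of -0.12; among all tested genes 86.0% were called, 43.4% higher and 42.5% lower, so the counts of the list are near the background. With quantile normalization the counts were 19 and 21, and 2 calls turned from lower to higher, among them that of WNK1.

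**Figure D2:**
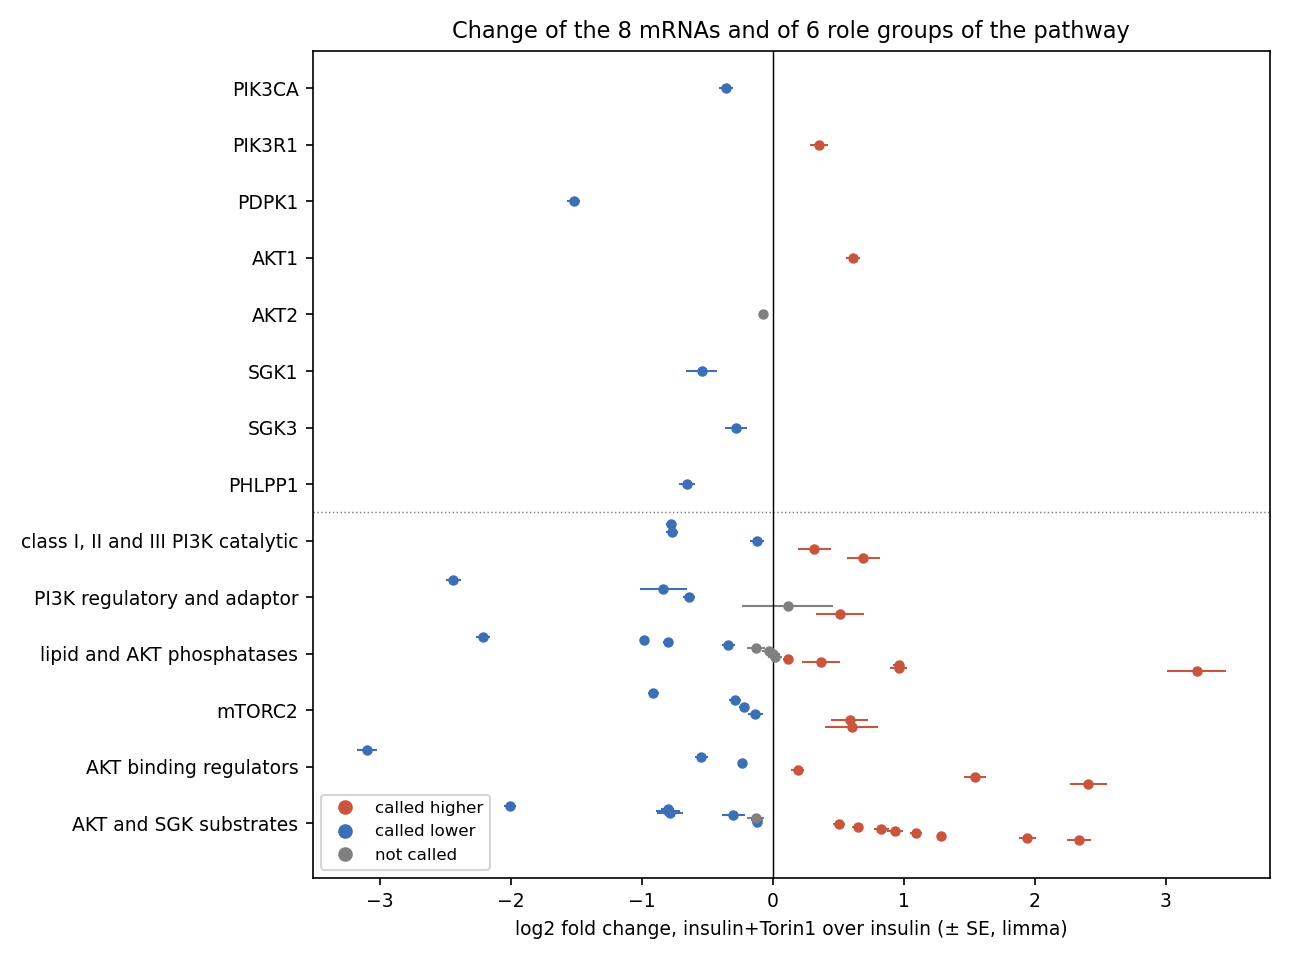
Log2 fold change with Torin1 (x axis, limma estimate ± SE) of the 8 genes, 1 per row above the dotted line, and of the tested pathway genes in 6 role groups below it. PDPK1 at -1.52 lies well outside the range of -0.66 to 0.61 of the other 7, and each role group has points on both sides of 0.

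Of 5 tested genes for other PI3K catalytic subunits, 2 rose and 3 fell. PIK3C2A, a class II enzyme, changed by -0.78, PIK3C3, the class III enzyme of endosomes and autophagy, by -0.77 and PIK3C2B, another class II enzyme, by 0.69. Among regulatory and adaptor genes 3 of 5 fell and 1 rose. PIK3R3, which encodes the regulatory subunit p55-gamma, had 1391 ± 69.5 units with insulin and 255 ± 14 with Torin1, a fall of -2.44 (n = 3 each). PIK3IP1, an inhibitor of the catalytic subunit, was at -0.84 and PIK3R4, the partner of PIK3C3, at -0.64. PIK3R5 at 0.11 was not called.

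Of 13 phosphatase genes 5 rose, 4 fell and 4 were not called. INPP5D, which encodes the PIP3 phosphatase SHIP1, went from 8.67 ± 1.53 to 89.3 ± 6.66 units (3.23 on the log2 scale, n = 3 each). Its insulin libraries, at 10, 7 and 9 units, would not have passed the filter on low values without the Torin1 libraries. The filter therefore favours a difference at this gene. PPP2R2A, a regulatory subunit of the phosphatase PP2A, was at -0.98. INPP4A (0.02), INPP5E (0.00), INPP5K (-0.13) and PPP2CB (-0.03) were not called.

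In mTOR complex 2, the kinase of the AKT and SGK tails, 4 of 6 genes fell and 2 rose. RICTOR, its scaffold, went from 2683 ± 86.0 to 1423 ± 71.0 units, a change of -0.91 (n = 3 each). The subunit genes PRR5L (0.60) and PRR5 (0.59) rose, but with quantile normalization neither was called, nor were the falls of MTOR, MAPKAP1 and MLST8. SGK2, the third SGK gene, with 1 of 3 Torin1 libraries under 10 units, fell from 39.3 ± 14.5 to 9.67 ± 3.21 units, a change of -1.91.

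Of 6 tested regulators that bind AKT or its partners, 3 rose and 3 fell. TRIB3, a pseudokinase that binds AKT, was at -3.10, THEM4, which encodes an AKT-binding protein, at 2.41, and PHLDA3, whose product competes with AKT for PIP3, at 1.54. Of 16 substrate genes 8 rose, 7 fell and 1, NEDD4L at -0.13, was not called. NDRG1, a substrate of SGK1, rose from 154 ± 24.9 to 772 ± 13.9 units, a change of 2.33 (n = 3 each). AKT1S1, which encodes the mTOR complex 1 inhibitor PRAS40, was at -2.01, and TBC1D1, a regulator of glucose transporter traffic, at 1.94.

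The genes nearest to PDPK1 over the 6 input libraries, by the root mean square difference of log2 values centred on each gene's mean, were RC3H2 (difference 0.02, change -1.51), YKT6 (0.03, -1.5) and ADNP (0.03, -1.54). For AKT1, which had the largest rise of the 8, they were DDX23 (difference 0.03, change 0.62), TMEM44 (0.03, 0.57) and ATG4B (0.03, 0.64). With 2 conditions, this measure mostly finds genes with the same fold change.

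Promoter sequence was looked at for the motif of FOXO factors, which AKT phosphorylates. The core GTAAACA, searched on both strands, lay in 3.42% of 35116 windows running from 250 bases before to 50 bases after a RefSeq gene start (GRCh38.p14). Of 14 windows of these genes, with no entry for SGK3, 1 held it, the PIK3CA window at chr3:179148107-179148406. The stretch shown is chr3:179148199-179148223 on the plus strand, where the core begins 149 bases before the start that this window is built on. That start lies downstream of the first base of the annotated gene body, so the stretch is inside the gene body. The core is shown in capitals, since it is the one match.
PIK3CA promoter: ttcgttgttTGTTTACacgatgtga
The palindromes CACGTG, in 7.26% of the 35116 windows, and TGACGTCA, in 1.85%, were in none of the 14. These are letter matches only.

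The m6A sites of the 8 genes were uneven. PDPK1 had 34 sites in the insulin list and 9 in the Torin1 list, AKT2 had 20 and 16, PHLPP1 17 and 10, AKT1 7 and 9, PIK3R1 8 and 5, and PIK3CA 6 and 6. SGK1 had 1 and 0, and SGK3 had none on its strand in either list. Each list gives a position once, under 1 replicate, so there is no replicate test. Most sites rested on few reads: 62 of 93 in the insulin list and 31 of 55 in the Torin1 list had a single substituted read (66.7% and 56.4%), against 61.6% and 59.6% of the whole lists.

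**Figure D3:**
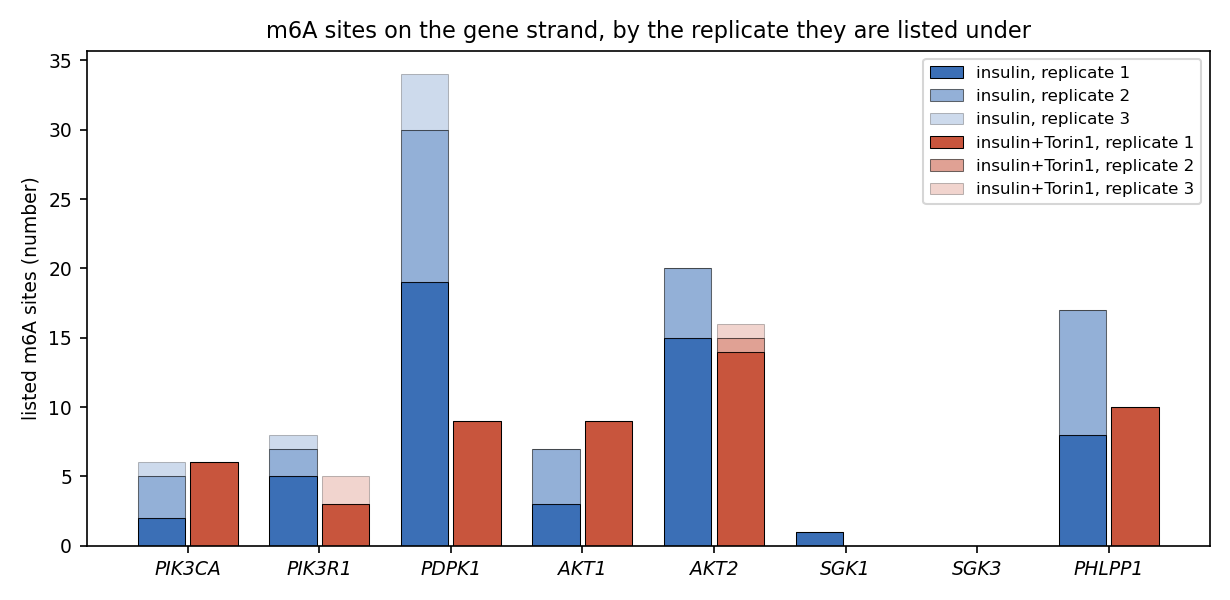
Number of listed m6A sites (y axis) on the gene strand of each gene in the insulin list and the Torin1 list, stacked by the replicate they are listed under. PDPK1 has 34 and 9 sites, and 1 Torin1 site of the 8 genes stands under replicate 2 against 34 insulin sites.

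The replicates did not contribute alike. Over the 8 genes, 53, 34 and 6 insulin sites and 51, 1 and 3 Torin1 sites stood under replicates 1, 2 and 3. The whole lists were split the same way, with 39670 insulin and 1552 Torin1 sites under replicate 2. Under replicate 1 alone PDPK1 had 19 sites with insulin and 9 with Torin1, AKT2 15 and 14, PHLPP1 8 and 10, AKT1 3 and 9, PIK3R1 5 and 3, and PIK3CA 2 and 6. Under replicate 1 the whole lists held 50656 insulin and 56298 Torin1 sites. Among 985 protein-coding genes with at least 10 insulin sites under replicate 1, the median ratio of Torin1 to insulin sites was 0.7. PDPK1 was at 0.474, and 24.1% of those genes were at or below it. AKT2 was at 0.933, with 73.1% at or below it. The other genes of the set had fewer than 10 such insulin sites. The filter was on insulin sites alone, which favours low ratios. These ranks therefore do not show a loss of sites.

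Of all these sites 31 were in both lists, 33.3% of the insulin sites and 56.4% of the Torin1 sites, against 28.3% and 43.1% for the whole lists. PDPK1 and AKT2 had 9 each, PHLPP1 7, and PIK3CA, PIK3R1 and AKT1 2 each. All 9 Torin1 sites of PDPK1 were also insulin sites. The 5-mers of the sites found in both lists are given for PDPK1 and AKT2, the genes with the most of them, by position on GRCh38 (chromosome 16, plus strand, and chromosome 19, minus strand), 5′ to 3′ along the RNA and written as DNA. The capital A is the listed base.
PDPK1 2597803: ggAca
PDPK1 2597928: aaAca
PDPK1 2597947: gaAca
PDPK1 2597963: aaAca
PDPK1 2598076: agAct
PDPK1 2598084: ggAca
PDPK1 2598177: ggAcc
PDPK1 2598223: gaAct
PDPK1 2602175: aaAct
AKT2 40232773: ggAct
AKT2 40232792: ggAct
AKT2 40232977: ggAca
AKT2 40233081: ggAcc
AKT2 40233161: gaAca
AKT2 40233649: agAct
AKT2 40233664: agAct
AKT2 40242613: ggAct
AKT2 40284662: ggAct
The AKT2 sites began with GGAC at 6 of 9 positions, and those of PDPK1 at 3 of 9. GGAC is the preferred start of the m6A consensus. Over the 8 genes it opened 37.6% of 93 insulin sites and 43.6% of 55 Torin1 sites, beside 31.5% and 32.9% of the whole lists, a difference that was not tested.

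PDPK1 lies at chromosome 16, 2538021 to 2603188, on the plus strand of GRCh38. Of its 34 insulin sites 31 lay in the last 6000 bases of the gene, and so did all 9 Torin1 sites. The densest stretch was 569 bases from 2597655 to 2598223, which held 15 of 34 insulin sites and 56 of 87 substituted reads. In the Torin1 list 8 of 9 sites and 20 of 21 substituted reads lay in the same stretch. Between it and the gene end, 16 insulin sites and 1 Torin1 site were listed. The gene body of the copy PDPK2P held 1 insulin site, on the plus strand, and 0 Torin1 sites. Reads of the copy may also have been placed on PDPK1 or dropped in these lists. Exon and UTR boundaries were not used here.

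AKT2 lies at chromosome 19, 40230317 to 40285345, on the minus strand. Of its sites 11 of 20 with insulin and 7 of 16 with Torin1 lay in a stretch of 1035 bases from 40232773 to 40233807, between 2456 and 3490 bases before the gene end. This stretch held 55 of 67 substituted reads with insulin and 46 of 63 with Torin1. The neighbouring sites 40233649 and 40233664 had the most substituted reads of any AKT2 site in the insulin list.

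PHLPP1 (chromosome 18, 62715541 to 62980433, plus strand) had sites near both ends. In the last 6000 bases lay 11 of 17 insulin and 7 of 10 Torin1 sites. The site with the most substituted reads was near the start with insulin, at 62716354 (3 of 8 reads), and near the end with Torin1, at 62978980 (8 of 36 reads). Both sites had the 5-mer ggAca and were in both lists. The lead with insulin was narrow, since 62979126, near the gene end, had 2 of 5 reads. At 62978980 the insulin list had 1 of 15 reads, and the share was not called different (Fisher's exact p = 0.251 before adjustment).

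**Figure D4:**
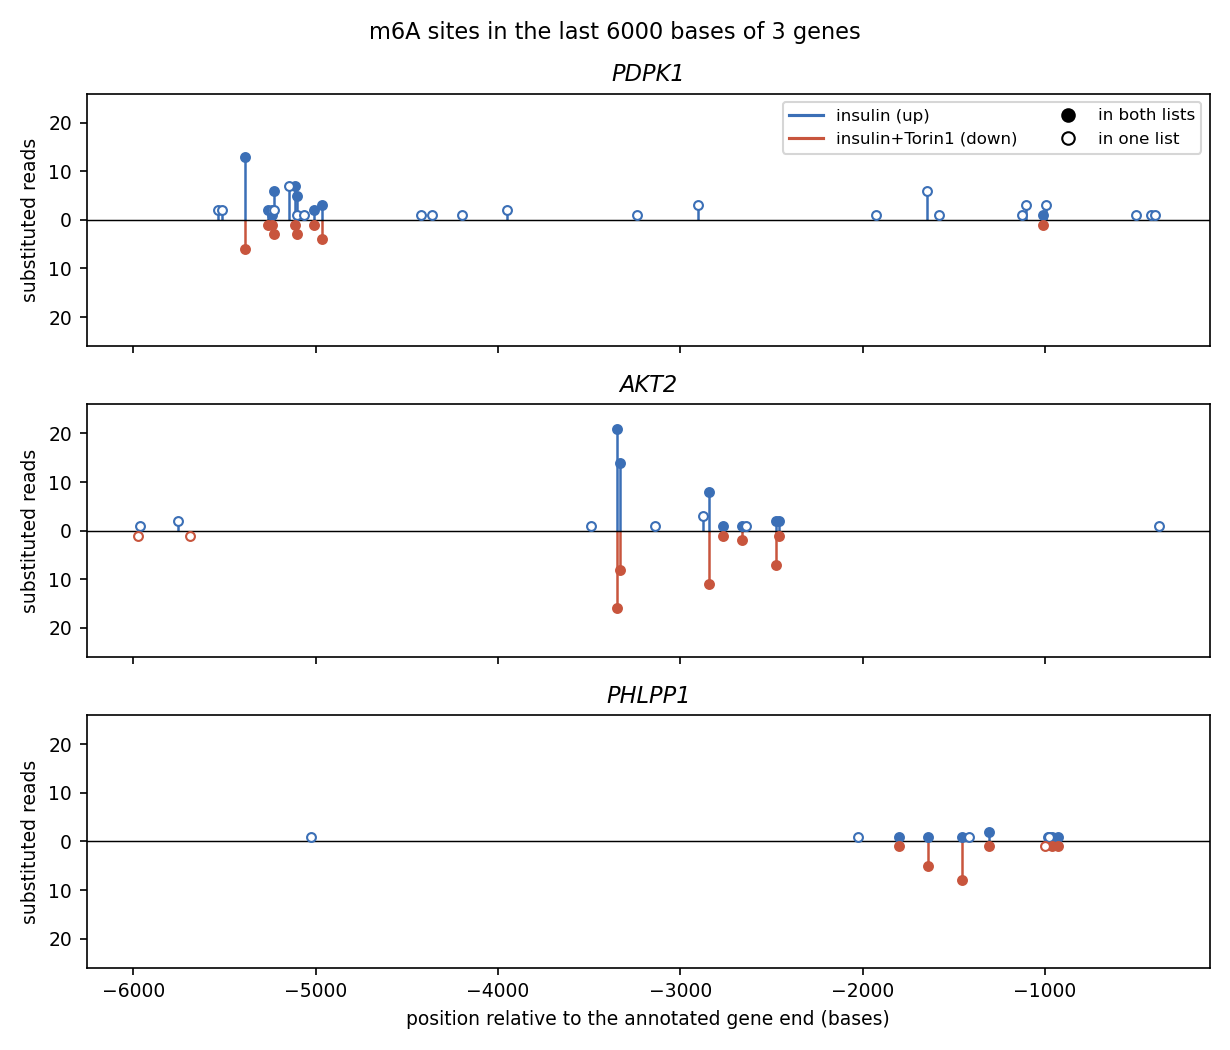
m6A sites of PDPK1, AKT2 and PHLPP1 in the last 6000 bases of each gene: x axis, position before the annotated gene end in bases; y axis, substituted reads per site, upward for the insulin list and downward for the Torin1 list; filled points are in both lists. PDPK1 sites crowd 4965 to 5533 bases before the end, where 8 of its 9 Torin1 sites lie, and AKT2 sites lie mostly 2456 to 3490 bases before it.

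The remaining genes had scattered sites with few reads. In PIK3CA (chromosome 3, 179148126 to 179240093, plus strand) the site with the most substituted reads in the insulin list was 179234420, with the 5-mer taAct, at 2 of 20 reads. In the Torin1 list it had 2 of 39 reads and was level with 179234248 (2 of 37) and 179234492 (2 of 9). In the Torin1 list 5 of its 6 sites lay within 245 bases around it. All 13 listed sites of PIK3R1 (chromosome 5, 68215756 to 68301821, plus strand), 8 with insulin and 5 with Torin1, had 1 substituted read each, with 7 reads at most (68226743, tgAct, with insulin and 68226499, ggAca, with Torin1). AKT1 (chromosome 14, 104769349 to 104795748, minus strand) had 9 Torin1 sites, all under replicate 1, none above 2 substituted reads. The leading AKT1 site with insulin was 104769617 (tgAct, 2 of 7 reads). With Torin1, 4 AKT1 sites had 2 substituted reads, and of these 104773058 (ggAct, 2 of 94 reads) had the most reads and 104776672 (2 of 4) the fewest. SGK1 (chromosome 6, 134169256 to 134318112, minus strand) had a single site, 134170281 with the 5-mer ggAct, at 1 of 2 reads. SGK3 (chromosome 8, 66712781 to 66862022) has no strand in the table used, and was set to plus because C8orf44-SGK3 starts before it and ends at the same base. On the minus strand its gene body held 2 insulin sites and 0 Torin1 sites, so its lack of sites rests on that choice.

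The substituted share, substituted reads over all reads at a site, was compared at sites in both lists under the same replicate with at least 10 reads in each. Of 11633 such sites 16 lay in the 8 genes, all under replicate 1. With Fisher's exact test, two-sided and adjusted over all 11633 sites, 0 of the 16 were called, against 0.456% of all sites (53 sites, 52 of them lower with Torin1). At an unadjusted p below 0.05 there was 1 of 16, against 8.73% of all sites. The test compares the reads of a pair of libraries, not the conditions, and sites are listed only where substitutions were found.

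The AKT2 site 40233649 had the smallest p of the 16. It had 14 substituted of 122 reads with insulin (11.5%, Wilson 95% interval 6.96% to 18.3%) and 8 of 209 with Torin1 (3.83%, 1.95% to 7.37%), with Fisher's exact p = 0.0107 and adjusted p = 0.319. At its neighbour 40233664, where 21 of 141 and 16 of 156 reads were substituted, the shares were 14.9% (9.95% to 21.7%) and 10.3% (6.41% to 16.0%). At the leading PDPK1 site, 2597803, 13 of 56 and 6 of 29 reads were substituted, 23.2% (14.1% to 35.8%) and 20.7% (9.85% to 38.4%). The intervals at these last 2 sites overlap, and at this depth no difference was detectable. Intervals cover counting error only.

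**Figure D5:**
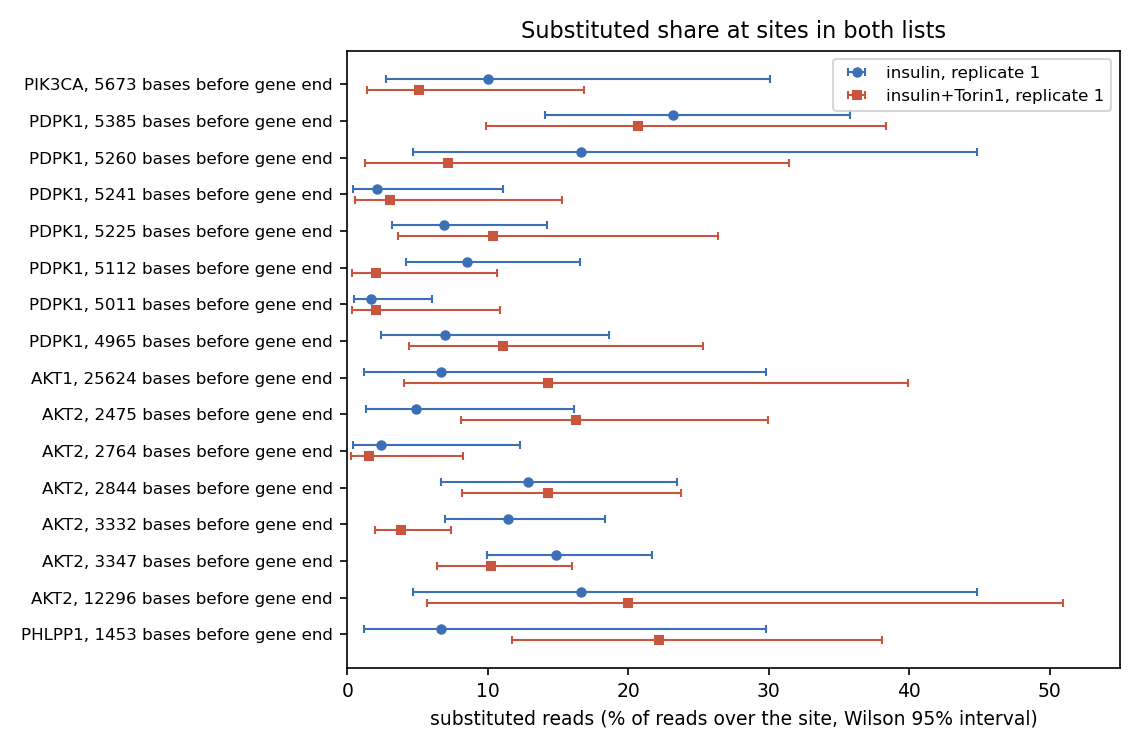
Substituted reads as a percent of reads over the site (x axis) with Wilson 95% intervals at the 16 tested sites, in the replicate 1 library with insulin (circles) and with insulin and Torin1 (squares). The intervals of the pair overlap at every site, those of the AKT2 site 3332 bases before the gene end only slightly.

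Reads over shared sites were fewer with Torin1 at PDPK1, while over all shared sites they were more. Over the 7 PDPK1 sites listed under replicate 1 in both lists, there were 444 reads with insulin and 238 with Torin1, a ratio of 0.536, whereas over all 16264 such sites the ratio was 2.20. For AKT2 the 7 sites had 428 and 589 reads (1.38), for PHLPP1 the 4 sites had 35 and 66 (1.89), and for AKT1 the 2 sites had 24 and 23 (0.958). The summed substituted share at these PDPK1 sites was 7.66% with insulin and 7.14% with Torin1, at those of AKT2 11.4% and 8.15%, and over all shared sites 7.97% and 4.25%. These are values of 1 library per condition, with no test.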

How the data were processed

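The authors deposited 1 expression table for the 6 input libraries and 1 list of m6A sites per condition. Named in the submitters' processing notes, with no step given, are DESeq2 1.22.2, DESeq, STAR, BWA 0.7.1 and the hg38 build. No column belonged to other samples. The authors' expression values are whole numbers whose low values skip steps, so they were taken as a score that the authors had normalized between libraries and rounded, and no count model was used. For each site the deposited fraction equals substituted reads over all reads; replicate, reads and 5-mer stand in the site name.

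limma 3.58.1 (R 4.3.3, variance trend) was run on log2(value + 1) for genes with at least 10 units in at least 3 libraries, with calls at an adjusted p below 0.05. Fold changes on this scale understate those of low genes. Besides the planned settings, the ratios, densest stretches and promoter motifs were chosen after the data were seen. The procedure was tested on simulated data. For limma these data held no or few changed genes. Here 86.0% of tested genes were called, a setting that the simulation did not cover. Gene bodies and strands came from RefSeq tables of GRCh38.p14; Fisher's exact tests used scipy 1.17.1. The correlation of deviations between same-numbered libraries was -0.02, 0.01 and -0.00, so replicate numbers were not taken as pairs.

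Named were the 8 genes, up to 3 called genes with the largest change and every uncalled gene per role of the pathway list, the 3 genes most like the largest rise and fall, and the leading site per gene and list. Genes and lists were chosen with earlier results of these data known. Some genes of the pathway list are counted but not reported here by name.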

Additional observations from a re-analysis of the deposited data

Results flagged for a closer look

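Sites on the strand opposite to a gene were outside the comparisons above. In 2 of the 8 gene bodies the insulin list held more than 3 of them, a fixed cutoff and not a test. How often other genes have such sites was not computed, so these counts do not set AKT1 or PDPK1 apart. AKT1 had 6 such sites with insulin and 0 with Torin1, 3 under replicate 1 and 3 under replicate 2, with 11 substituted of 15 reads in all. PDPK1 had 5 with insulin and 2 with Torin1, each with a single substituted read.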

How the results depend on the processing

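Directions and calls of PIK3CA, PIK3R1, PDPK1, AKT1, SGK1 and PHLPP1 were kept under other pseudocounts, filters, scalings, variance models and each left-out library; against 1.5-fold, the call of PDPK1 alone held, and AKT2 and SGK3 were the exceptions given above. AKT2 turned to 0.053 with equal library totals and to 0.24 with quantile normalization, and the cause was not tested. Equal totals moved the median change of all genes by 0.12. Against 1.5-fold, 0 of the 8 genes were called higher and 1 lower. Leaving out a library gave 2 higher and 5 to 6 lower. With a replicate block 2 were higher and 5 lower, the same counts as without it. The insulin sites numbered 53 under replicate 1 alone and 40 to 87 with 1 replicate left out, the Torin1 sites 4 to 54 and the shared sites 1 to 31; the low values come from leaving out replicate 1. With at least 3 substituted reads 15, 13 and 7 remained. Few substituted reads per site limit the m6A results.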
